A study of Homo sapiens with 27 samples.

Results

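The enzymes described here make serine from a glycolytic intermediate and pass its hydroxymethyl carbon to folate. The set holds 10 genes, chosen by name from the 27115 genes listed for each library. PHGDH, PSAT1 and PSPH carry out the successive steps of serine synthesis in the cytosol. SHMT1 and MTHFD1 handle folate-bound carbon in the cytosol. SHMT2, MTHFD2, MTHFD2L, MTHFD1L and ALDH1L2 do so in mitochondria. RNA was sequenced from 3 diffuse large B-cell lymphoma lines, Karpas422, OCI-LY1 (labelled OCILy1) and HBL1. Each line was infected with a lentivirus carrying a scramble control hairpin (shCtr, labelled shCTRL) or 1 of 2 hairpins against the mitochondrial deacetylase SIRT3 (shSIRT3-1 and shSIRT3-2). Infected cells of every group, the controls included, were selected with puromycin and collected at day 8. Each of the 9 groups held 3 libraries, 27 in all. Each line is a single established culture, and the labels do not say whether replicates were separate infections, so p-values measure the spread between these libraries only.

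Serine hydroxymethyltransferase splits serine into glycine and a folate-bound carbon, with SHMT2 in mitochondria and SHMT1 in the cytosol. In mitochondria MTHFD2 or MTHFD2L oxidises this carbon, and MTHFD1L releases it as formate, which cytosolic MTHFD1 takes up again for purine and thymidylate synthesis. ALDH1L2 instead oxidises the mitochondrial carbon to carbon dioxide and yields NADPH. Dividing lymphoid cells are known for a high demand on this cycle. ATF4 is a transcription factor known for inducing amino acid synthesis genes, and pairs of ATF4 with C/EBP proteins bind the element TGATGCAA.

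That element was searched on both strands within 1000 bases either side of the start of each gene's canonical transcript in hg19 (GRCh37), the build of the deposited files. It was present in 5 of the 10 genes, PHGDH, PSAT1, SHMT2, MTHFD1L and ALDH1L2, against 3.64% of 18191 protein-coding genes. Allowing any base at its sixth letter (TGATGNAA, which includes the first element) added MTHFD2, against 18.61% of all genes. The 9-letter form TGATGCAAT, a subset of the first, was present in PHGDH, MTHFD1L and ALDH1L2, against 0.94%. PSPH, SHMT1, MTHFD1 and MTHFD2L held none of these letters in the window. One match per gene is shown for these 6 genes, and each of the matches shown lies in an intron of the canonical transcript. All 6 are among the 7 genes whose RNA was lower with the SIRT3 hairpins. The 10 genes and the 3 spellings were chosen with results of these data known. MTHFD2 entered through the looser spelling alone, so nothing is read from that overlap. Sequences are written 5′ to 3′ with the matched letters, or their complement, in capitals, each from the genome reference at the stated place and strand.

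PHGDH, chr1:120255409-120255438, plus strand, 863 bases past that start: cgcccctcgtcTGATGCAAgactgctccgt

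PSAT1, chr9:80912297-80912326, plus strand, 267 bases past that start: ccctaggcgctTTGCATCAgcgtgcacagc

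SHMT2, chr12:57623942-57623971, plus strand, 459 bases past that start: agccctgcagaTGATGCAAccgagcttcac

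MTHFD2, chr2:74426329-74426358, plus strand, 598 bases past that start: gctgctgcagcTGATGAAAtcgcggagccg

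MTHFD1L, chr6:151187482-151187511, plus strand, 655 bases past that start: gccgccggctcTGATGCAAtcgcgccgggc

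ALDH1L2, chr12:105477499-105477528, minus strand, 719 bases past that start: gcgccttggaaTTGCATCAgctcctccaga

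SHMT2 held a further TGATGCAA match at position 481 from that start, PHGDH at position -954 and ALDH1L2 at position -974. In the RefSeq promoter windows of GRCh38.p14, which run from 250 bases before to 50 bases after each start and cover 7 of the 10 genes, TGATGCAA occurred only in MTHFD1L, against 0.87% of 35116 windows. A match is a description of the letters and not of binding, which was not measured here.

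The libraries held 28694398 to 53405456 reads on genes (median 45669254), and values are CPM, the reads of a gene scaled to the total of its library. SIRT3 was lower in each of the 18 knockdown libraries than in every control library of its line. In Karpas422 its CPM were 9.99, 9.14 and 10.2 with shCtr, 2.44, 2.79 and 2.57 with shSIRT3-1, and 6.24, 5.32 and 4.41 with shSIRT3-2. In OCI-LY1 they were 10.7, 13.8 and 9.98, then 2.23, 1.06 and 1.62, then 6.17, 4.06 and 6.03. In HBL1 they were 13.5, 14.2 and 16.4, then 2.13, 2.39 and 2.00, then 2.84, 3.12 and 3.82. The hairpins differed in depth of knockdown: over the 3 lines SIRT3 was left at 18.3% of control with shSIRT3-1 and 38.8% with shSIRT3-2. The B cell markers MS4A1, CD79A, CD79B and PAX5 were at 136 CPM or more in every library and CD22 at 4.55 or more. Of the 6 T cell markers, CD3G had a median of 32.3 CPM in Karpas422 and no other passed 1.59 CPM in any library, and no myeloid marker passed 1.02 CPM. COL1A2 (median 14.8 CPM), PECAM1 (7.30) and EPCAM (4.27) were present in HBL1 above their medians in the other lines, of at most 1.84 CPM. In HBL1 the summed 6 epithelial and stromal markers ran from 24.6 to 40.2 CPM with shCtr, 18.7 to 20.4 with shSIRT3-1 and 43.8 to 69.2 with shSIRT3-2. The summed B cell markers were lower with shSIRT3-2 than with shCtr, without overlap, in Karpas422 (945 to 1480 CPM against 1630 to 2360) and HBL1 (1490 to 1570 against 1780 to 2190). The summed T cell markers were lower in Karpas422 with shSIRT3-1 (18.5 to 31.7 CPM against 37.6 to 43.4). The part of these markers in the results below was not tested.

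Certain libraries stood apart in the enzymes themselves. The shCtr replicate 2 of OCI-LY1 was the highest control of its line for 9 of the 10 genes, with MTHFD1 the exception, and held 250 CPM of PSAT1 where its fellow controls held 42.7 and 33.7. ATF4 was also highest there, at 326 CPM against 152 and 129. The shSIRT3-1 replicate 3 of HBL1 held the lowest CPM of all 27 libraries for 7 of the 10 genes, and the lowest share of reads on genes, 40.3% against a median of 44.4%. The main counts, and values that these libraries move most, are also given without them.

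Serine synthesis and most mitochondrial folate enzymes had less RNA after SIRT3 knockdown, and the cytosolic folate enzymes did not pass the test. Calls required a change of more than 1.5 times and a limma p, adjusted by Benjamini-Hochberg across 13076 genes, under 0.05. With shSIRT3-1, 7 of the 10 genes were called lower over the 3 lines, where 9.09% of all genes tested were called lower. With shSIRT3-2, again 7 were called lower, where the share of all genes was 10.2%. They were all 3 serine synthesis genes and 4 of the 5 mitochondrial genes, in each comparison. ALDH1L2, the fourth of these, passed the level filter through HBL1 alone, and 6 of the other 9 genes were called. None of the 10 was called higher, as 3.92% and 3.29% of all genes were. These comparisons share their 9 control libraries, and 3.98% of all genes were called lower in both. The median log2 fold change of the 10 genes was -1.46 with shSIRT3-1 and -1.37 with shSIRT3-2, against -0.05 and -0.03 over all genes tested. Without OCI-LY1 shCtr replicate 2, or without HBL1 shSIRT3-1 replicate 3, 7 genes were again called with each hairpin.

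**Figure D1:**
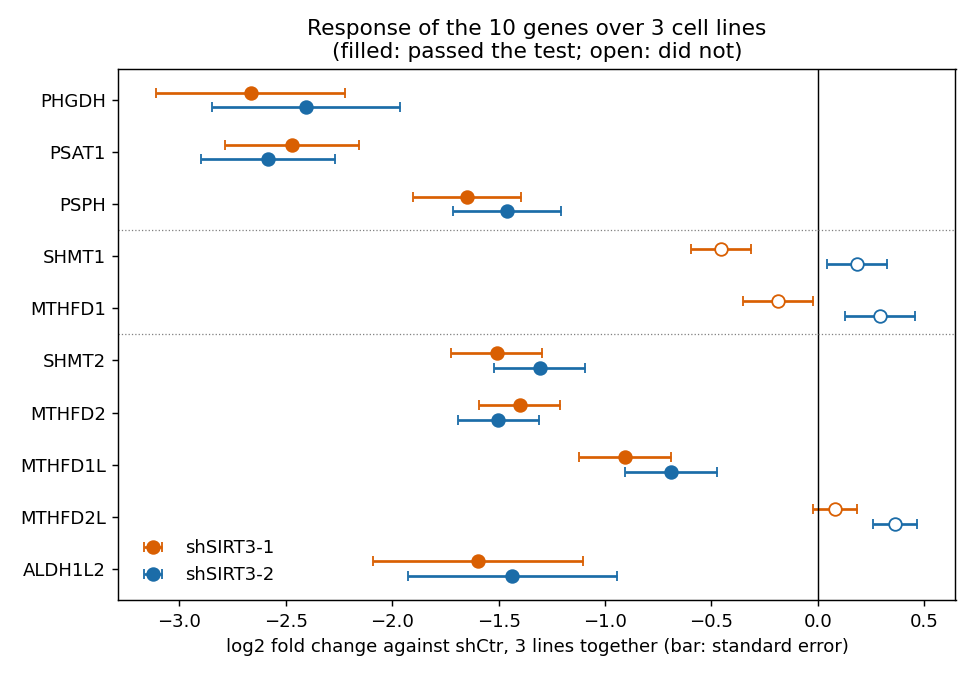
Log2 fold change of each gene against shCtr over 3 cell lines (x axis), with 1 row per gene; bars are standard errors, and filled circles passed the test while open ones did not. Dotted lines separate serine synthesis, cytosolic folate and mitochondrial folate genes. PHGDH and PSAT1 lie farthest to the left, between -2.41 and -2.66, while SHMT1, MTHFD1 and MTHFD2L lie near 0.

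PHGDH makes the committed step of serine synthesis, the oxidation of 3-phosphoglycerate. In HBL1 its CPM were 276, 275 and 321 with shCtr, 40.3, 44.7 and 19.0 with shSIRT3-1, and 72.9, 71.2 and 89.2 with shSIRT3-2. In Karpas422, which had the lowest control level, they were 38.2, 36.6 and 32.0, then 5.55, 6.75 and 0.679, then 3.76, 3.71 and 0.517. The replicate 3 knockdown libraries of Karpas422 were thus far below their fellows, on 64 and 61 reads. In OCI-LY1 they were 100.1, 295 and 78.5, then 63.3, 44.9 and 51.8, then 62.1, 52.7 and 56.2. In no line did a knockdown library overlap the controls. Lying wholly below the controls was common among all genes. For Karpas422 it held for 32.2% of them with shSIRT3-1 and 24.4% with shSIRT3-2. The shares were 15% and 18% for OCI-LY1. For HBL1 they were 30.8% and 34.2%. Over the 3 lines PHGDH fell by 2.66 ± 0.44 (log2, SE) with shSIRT3-1, to 15.8% of control (limma adjusted p = 4.83e-05). With shSIRT3-2 it fell by 2.41 ± 0.44, to 18.9% (adjusted p = 0.000168).

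PSAT1 transfers an amino group from glutamate to form phosphoserine. In HBL1 it held 368, 370 and 384 CPM with shCtr, 48.4, 51.5 and 18.8 with shSIRT3-1, and 53.7, 57.2 and 55.8 with shSIRT3-2. In Karpas422 it held 214, 183 and 244, then 48.6, 45.0 and 22.4, then 22.1, 25.8 and 16.9. In OCI-LY1 the controls of 42.7, 250 and 33.7 CPM spread widely, and knockdown libraries of 28.6, 22.1 and 24.7, then 22.8, 24.4 and 19.0, lay below all of them. The groups did not overlap in any line. PSAT1 fell by 2.47 ± 0.32 (log2, SE; limma adjusted p = 1.95e-06) and by 2.58 ± 0.32 (adjusted p = 1.38e-06) across the lines.

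PSPH removes the phosphate to release serine. In HBL1 its controls of 32.4, 33.3 and 32.2 CPM were close together, and knockdown left 4.55, 5.03 and 4.17 with shSIRT3-1 and 6.70, 6.15 and 7.36 with shSIRT3-2. In Karpas422 it went from 65.4, 53.1 and 75.5 to 22.4, 24.0 and 15.6, and to 18.7, 21.5 and 17.0. OCI-LY1 was the line where groups overlapped, with controls of 28.8, 71.4 and 18.1 CPM, shSIRT3-1 libraries of 25.4, 23.2 and 23.0, and shSIRT3-2 libraries of 27.8, 25.7 and 24.1. PSPH fell by 1.65 ± 0.25 (log2, SE; limma adjusted p = 1.93e-05) and by 1.46 ± 0.25 (adjusted p = 8.9e-05) across the lines. All 3 serine synthesis genes lay below their line's control mean in 18 of 18 knockdown libraries, as did SHMT2, MTHFD2 and MTHFD1L, against 5.19% of all genes tested. For PSPH and MTHFD1L this depends on OCI-LY1 shCtr replicate 2. Without it the OCI-LY1 controls averaged 23.4 CPM of PSPH, where knockdown libraries held 23.0 to 27.8. For MTHFD1L they averaged 40.8 CPM, where knockdown libraries held 32.7 to 41.3.

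**Figure D2:**
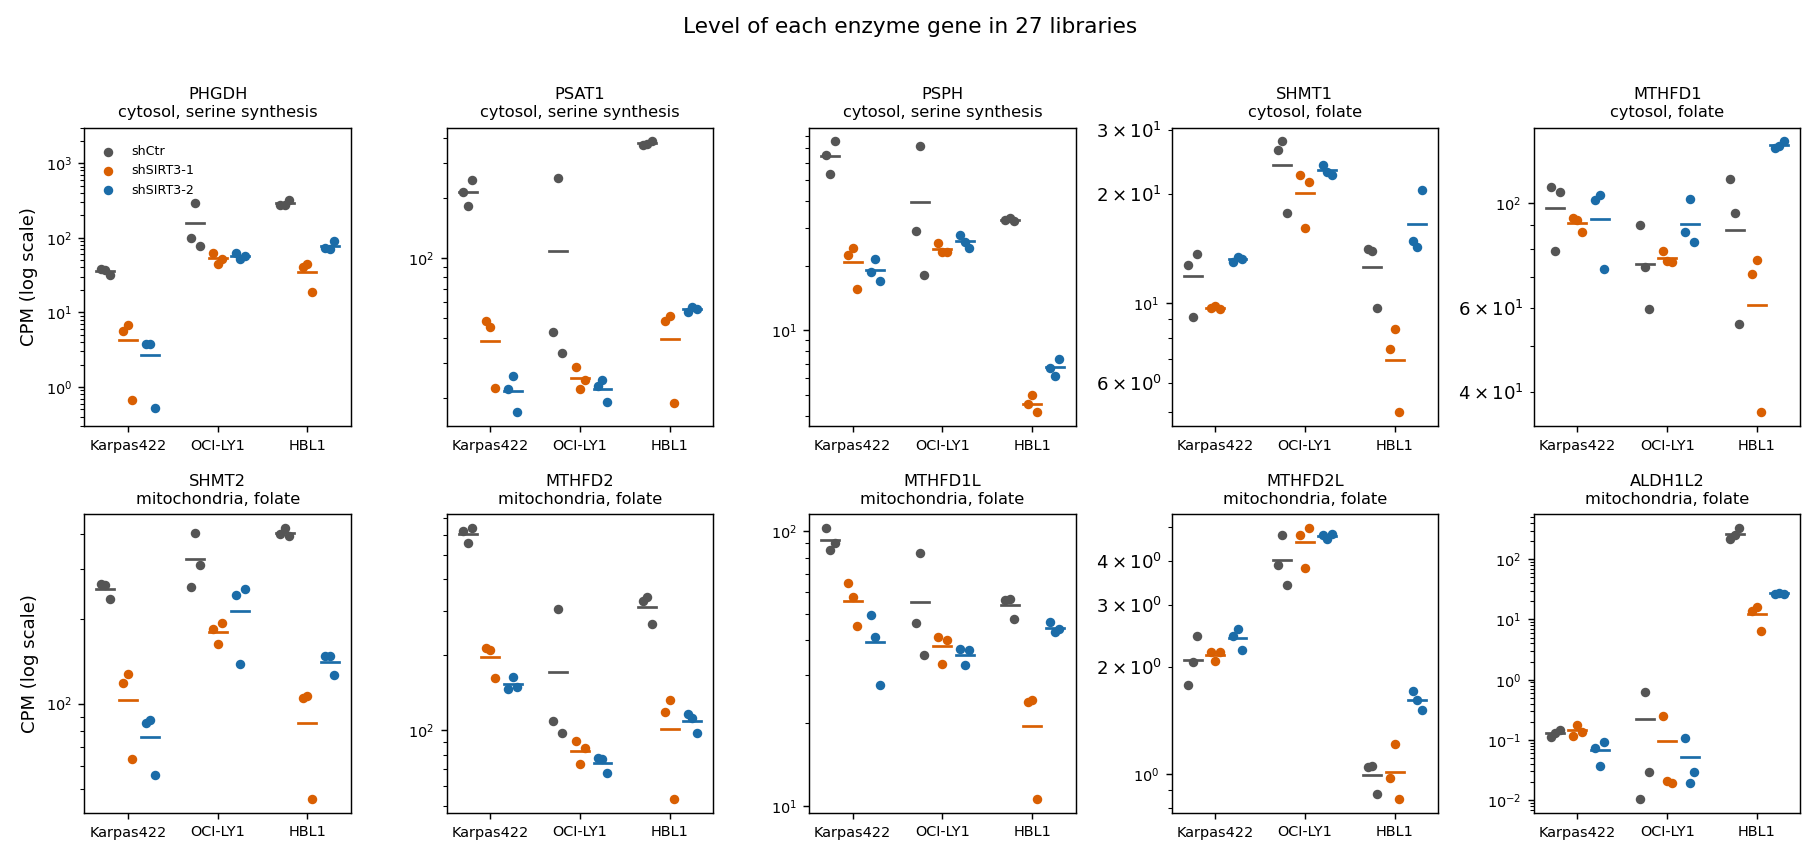
CPM of each gene in 27 libraries (y axis, log scale, with its own range per gene), by cell line and hairpin; points are libraries and bars the mean of 3. The control of OCI-LY1 that stands above its fellows is replicate 2, and ALDH1L2 exceeds 1 CPM only in HBL1.

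SHMT2, the mitochondrial entry point for serine carbon, held 398, 419 and 392 CPM in HBL1 controls, 104, 106 and 45.9 with shSIRT3-1 and 148, 147 and 127 with shSIRT3-2. In Karpas422 it held 265, 263 and 235, then 118, 128 and 63.9, then 85.6, 87.5 and 55.7. In OCI-LY1 it held 259, 403 and 311, then 184, 162 and 192, then 243, 139 and 256. Controls and knockdown did not overlap in any line, though in OCI-LY1 the gap with shSIRT3-2 was small. SHMT2 fell by 1.51 ± 0.21 (log2, SE; limma adjusted p = 6.71e-06) and by 1.31 ± 0.21 (adjusted p = 4.54e-05) across the lines.

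MTHFD2, the dehydrogenase and cyclohydrolase of proliferating cells, was highest in Karpas422. It held 625, 560 and 641 CPM there with shCtr, 214, 210 and 163 with shSIRT3-1 and 147, 163 and 149.7 with shSIRT3-2. In HBL1 it went from 328, 339 and 267 to 118, 132 and 53.2, and to 116, 112 and 98.1. In OCI-LY1 it went from 109, 306 and 97.5 to 90.9, 73.7 and 85.1, and to 78.0, 76.8 and 67.5. No group of knockdown libraries overlapped its controls. MTHFD2 fell by 1.40 ± 0.19 (log2, SE; limma adjusted p = 4.19e-06) across the lines with shSIRT3-1, to 37.9% of control, and to 35.3% of control with shSIRT3-2 (adjusted p = 1.97e-06).

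MTHFD1L, which releases mitochondrial formate, fell less, by 0.91 ± 0.22 (log2, SE; limma adjusted p = 0.00181) with shSIRT3-1 and by 0.69 ± 0.22 (adjusted p = 0.0142) with shSIRT3-2. In HBL1 its levels with the hairpins differed: 56.3, 56.6 and 47.9 CPM with shCtr, 23.8, 24.3 and 10.6 with shSIRT3-1, and 46.5, 42.9 and 44.1 with shSIRT3-2. In Karpas422 it went from 102, 84.9 and 90.7 CPM to 64.5, 57.7 and 45.0, and to 49.6, 41.2 and 27.6. Knockdown lay below the controls in those lines. In OCI-LY1 it overlapped them, with 46.2, 83.4 and 35.3 CPM for shCtr, 41.3, 32.9 and 40.3 for shSIRT3-1, and 37.2, 32.7 and 36.8 for shSIRT3-2. Its call with shSIRT3-2 was lost without Karpas422 shSIRT3-2 replicate 3, on its fold change (-0.56, adjusted p = 0.0331, limma).

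ALDH1L2, the mitochondrial formyl-folate dehydrogenase, was above 1 CPM in HBL1 alone. HBL1 controls held 220.5, 248 and 330.0 CPM, against 0.623 CPM or less in every library of the other lines. In HBL1 the level was 13.8, 16.4 and 6.37 CPM with shSIRT3-1 and 26.8, 27.9 and 26.6 with shSIRT3-2, far below the controls. Within HBL1 it fell by 4.53 ± 0.31 (log2, SE; limma adjusted p = 5.39e-05), to 4.34% of control, and by 3.27 ± 0.31 (adjusted p = 0.000204), to 10.4%. Without replicate 3 of shSIRT3-1 the first value was -4.12 (adjusted p = 2.19e-06). The call over 3 lines rests on HBL1: it was -1.60 ± 0.49 (adjusted p = 0.0125) and -1.44 ± 0.49 (adjusted p = 0.0233), and the second was lost without any 1 of the 3 HBL1 controls (adjusted p from 0.0521 to 0.0583).

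SHMT1, MTHFD1 and MTHFD2L were not called over the 3 lines. SHMT1 differed by -0.45 ± 0.14 (log2, SE; limma adjusted p = 0.0134) with shSIRT3-1, short of the fold required, and by 0.18 ± 0.14 (adjusted p = 0.32) with shSIRT3-2. MTHFD1, the trifunctional cytosolic enzyme, differed by -0.19 ± 0.16 (adjusted p = 0.385) and 0.29 ± 0.16 (adjusted p = 0.164). MTHFD2L, the MTHFD2 relative found in adult tissue, differed by 0.08 ± 0.10 (adjusted p = 0.57) and 0.37 ± 0.10 (adjusted p = 0.00709, short of the fold). MTHFD2L was also the least expressed apart from ALDH1L2 outside HBL1, at 0.847 to 4.96 CPM. Knockdown libraries lay below the control mean in 11 of 18 cases for SHMT1, 7 for MTHFD1 and 3 for MTHFD2L.

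Within a library, the ratios of SHMT2 to SHMT1, MTHFD2 to MTHFD1 and MTHFD1L to MTHFD1 were lower on average with each hairpin than with shCtr in every line. The ratio of MTHFD2L to MTHFD1 was not, and its groups overlapped in each line, with means of 0.0220 (shCtr), 0.0240 (shSIRT3-1) and 0.0265 (shSIRT3-2) in Karpas422 and 0.0120, 0.0177 and 0.0122 in HBL1. The ratio of SHMT2 to SHMT1 CPM averaged 33.0 in HBL1 controls (28.3 to 40.4), 11.9 with shSIRT3-1 (9.21 to 14.01) and 8.83 with shSIRT3-2 (6.17 to 10.4). In Karpas422 it went from 22.3 (17.3 to 28.8) to 10.6 (6.67 to 13.0) and 5.79 (4.21 to 6.62). In OCI-LY1 it was 13.9 (9.78 to 17.6), then 9.05 (8.17 to 10.1) and 9.14 (6.02 to 11.3), and the groups overlapped. MTHFD2 to MTHFD1 went from 6.31 to 2.15 and 1.69 in Karpas422, and from 3.76 to 1.62 and 0.821 in HBL1, with no overlap. In OCI-LY1 it went from 2.34 (1.22 to 4.16) to 1.08 (0.973 to 1.145) and 0.823 (0.754 to 0.899), again with no overlap. Without replicate 2 the OCI-LY1 control mean was 1.42. These ratios compare CPM without regard to length, and they carry no test. A lower ratio is not by itself less of the mitochondrial enzyme. In HBL1 with shSIRT3-2, SHMT1 stood at 132% and MTHFD1 at 151% of the control mean, neither called. MTHFD1L stood at 83% there, also without a call.

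**Figure D3:**
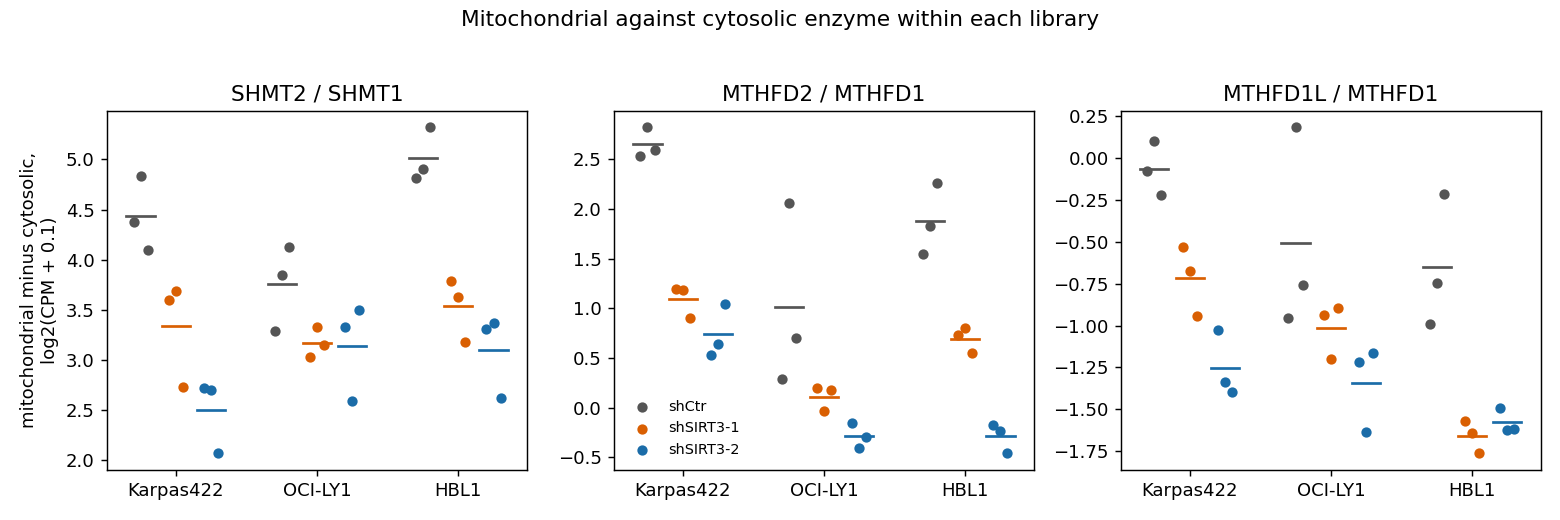
Difference of a mitochondrial and a cytosolic enzyme within each library, in log2(CPM + 0.1) (y axis), by cell line and hairpin; points are libraries and bars the mean of 3. In Karpas422 and HBL1 every knockdown library lies below every control of its line in all 3 panels, while in OCI-LY1 SHMT2 against SHMT1 overlaps with both hairpins and MTHFD1L against MTHFD1 with shSIRT3-1.

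The response was then taken line by line. In Karpas422, 6 of the 9 genes tested were called lower with each hairpin, where 11.5% and 9.44% of all genes were called lower. They were PHGDH, PSAT1, PSPH, SHMT2, MTHFD2 and MTHFD1L, from -0.74 (MTHFD1L) to -3.52 (PHGDH) with shSIRT3-1 and from -1.27 (MTHFD1L) to -4.09 (PHGDH) with shSIRT3-2. The PHGDH values carried an SE of 0.85, with the replicate 3 knockdown libraries far below their fellows. ALDH1L2 was under the level filter in Karpas422 and OCI-LY1 and was not tested there.

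In HBL1, 8 of 10 genes were called lower with shSIRT3-1, where 18.8% of all genes were, and SHMT1 was among them (-0.85 ± 0.24, limma adjusted p = 0.0213), although not without shCtr replicate 1 (adjusted p = 0.0766) or 2 (0.08). SHMT1 held 14.1, 13.9 and 9.70 CPM with shCtr there, 7.45, 8.48 and 4.98 with shSIRT3-1, all below the controls, and 14.8, 14.2 and 20.54 with shSIRT3-2, all above them. With shSIRT3-2, 6 were called lower, where 16% of all genes were, and MTHFD2L was called higher (0.66 ± 0.18, limma adjusted p = 0.0219), where 7.51% were. That call was lost without any 1 of the 3 controls (adjusted p from 0.052 to 0.0599) and without shSIRT3-2 replicate 1 (0.0881) or 2 (0.0684). MTHFD1L was not called there (-0.27 ± 0.28, adjusted p = 0.491). MTHFD1 stood at 131, 132 and 135 CPM with shSIRT3-2, above controls of 112, 95.3 and 55.7, as 26.7% of all genes lay wholly above, and did not pass the test (0.66 ± 0.32, adjusted p = 0.138). With the replicate number as a block, which the HBL1 libraries allow, it was called higher (adjusted p = 0.0458). Without shSIRT3-1 replicate 3 the same 8 genes were called lower with shSIRT3-1, and MTHFD1 was called higher with shSIRT3-2 (adjusted p = 0.0315).

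In OCI-LY1 no gene of 9 was called with either hairpin by limma, where 4.5% and 6.41% of all genes were called. At an unadjusted p under 0.05 there were 4 with each hairpin, and edgeR's quasi-likelihood test on recovered reads called 2 with each and its likelihood ratio test 4 and 3. No share of all genes is given for unadjusted or edgeR counts in a single line, here or below. Nothing particular to the enzymes is read from those counts. Values were below 0 for 7 of 9 genes with each, where those of 5276 and 5534 of all 11205 genes tested were. Among the 7 were PSAT1 (-1.51 ± 0.59, limma adjusted p = 0.14, and -1.69 ± 0.59, adjusted p = 0.098) and PHGDH (-1.32 ± 0.39, adjusted p = 0.0692, and -1.22 ± 0.39, adjusted p = 0.0799). PHGDH, PSAT1, SHMT2 and MTHFD2 had every knockdown library below every control, as did the 15% and 18% of all genes given above. The differences were smaller without shCtr replicate 2. PSAT1 then stood at -0.60 (adjusted p = 0.0783) and -0.79 (adjusted p = 0.0371, called), PHGDH at -0.75 and -0.64, MTHFD2 at -0.32 and -0.48, and PSPH turned from -0.48 and -0.37 to 0.06 and 0.18.

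**Figure D4:**
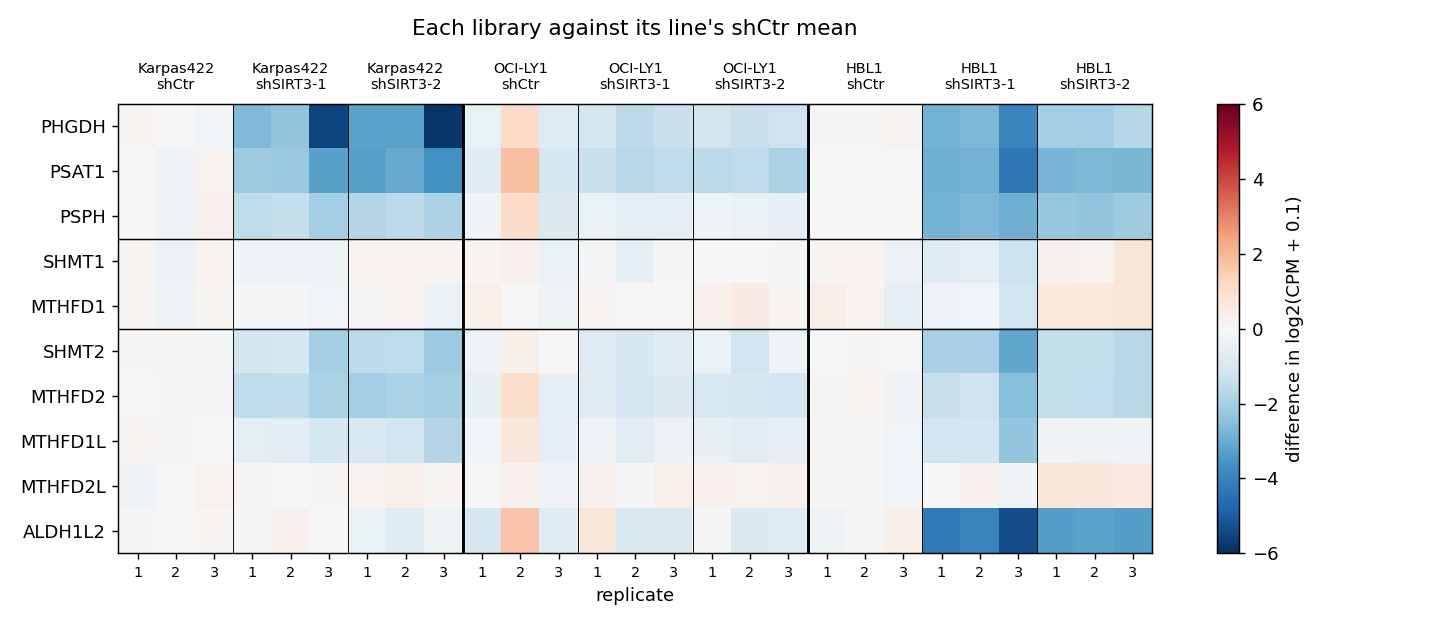
Difference of each library from the mean of its line's shCtr libraries in log2(CPM + 0.1) (colour), for 10 genes (rows) and 27 libraries (columns, numbered by replicate). Blue cells fill Karpas422 and HBL1 knockdown for serine synthesis, SHMT2 and MTHFD2, down to -5.85 for PHGDH, and the mostly red column in OCI-LY1 is shCtr replicate 2.

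A test of whether the response differed between lines called 6 of the 10 genes, where 41.8% of all genes were called: ALDH1L2 (limma adjusted p = 0.000338), PSPH (0.0012), MTHFD1L (0.00733), SHMT2 (0.0151), MTHFD1 (0.0461) and SHMT1 (0.0484). ALDH1L2, under 1 CPM in the other lines, could not fall there, and its call adds nothing to the count, which is 5 of the other 9 genes. PHGDH (0.0516), PSAT1 (0.0804), MTHFD2L (0.139) and MTHFD2 (0.184) did not pass. Without OCI-LY1 shCtr replicate 2, PHGDH (0.0215), PSAT1 (0.00021) and MTHFD2 (0.00334) passed and MTHFD1 (0.0525) did not. Without HBL1 shSIRT3-1 replicate 3, SHMT1 (0.149) and MTHFD1 (0.0874) did not pass.

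The hairpins were also set against each other. Over the 3 lines SHMT1 alone of the 10 was called, higher with shSIRT3-2 (0.64 ± 0.14, limma adjusted p = 0.00131), where 5.27% of all genes were called higher, and it fell short of the fold without HBL1 shSIRT3-1 replicate 3 (0.53). In HBL1, 7 of 10 were higher with shSIRT3-2, where 14.9% of all genes were: PHGDH, SHMT1, MTHFD1, SHMT2, MTHFD1L, MTHFD2L and ALDH1L2, by 0.64 (MTHFD2L) to 1.27 (MTHFD1L). Without that replicate 5 were. In Karpas422 none of 9 was called by limma, where 11.5% of all genes were, with 4 at an unadjusted p under 0.05 and 1 called by either edgeR test. In OCI-LY1 none was called by limma or edgeR, where 4.68% were, with 0 at an unadjusted p under 0.05.

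The lines differed before knockdown. Per kilobase of the canonical transcript, the mean control level over 9 libraries ran from SHMT2 (152 CPM per kb), PSAT1 (105), PHGDH (86.5) and MTHFD2 (82.6) through MTHFD1 (27.5), PSPH (23.1), MTHFD1L (19.4), ALDH1L2 (11.96) and SHMT1 (6.38) to MTHFD2L (1.01). The order differed by line: in Karpas422 MTHFD2 came first (138), and PHGDH (19.1) stood below PSPH (32.8), MTHFD1 (31.0) and MTHFD1L (26.9). The ALDH1L2 mean came from HBL1 (35.8). With all 9 control libraries PHGDH was the most uneven of the serine synthesis genes. It stood at 35.6 ± 3.22 CPM in Karpas422 (SD, n = 3), 158 ± 119 in OCI-LY1 and 291 ± 26.5 in HBL1. Without OCI-LY1 replicate 2 the PHGDH mean there was 89.3 CPM, and PSAT1 was then the most uneven. PSAT1 averaged 38.2 CPM in OCI-LY1 without that library, 214 in Karpas422 and 374 in HBL1. For PHGDH, HBL1 exceeded Karpas422 by 3.03 ± 0.38 (log2, SE; limma adjusted p = 4.36e-05) and OCI-LY1 by 1.13 ± 0.38 (adjusted p = 0.023). The latter was 1.71 without OCI-LY1 shCtr replicate 2 (adjusted p = 4.98e-06), and it was not called without HBL1 shCtr replicate 3 (1.06, adjusted p = 0.0628). MTHFD2L was ordered otherwise, with HBL1 lowest at 0.992 ± 0.10 CPM (SD, n = 3), Karpas422 at 2.10 ± 0.341 and OCI-LY1 at 4.02 ± 0.677, each pair called. ALDH1L2 was 10.15 ± 0.57 log2 units higher in HBL1 than in Karpas422. It passed the level filter among the controls through HBL1 alone, so its calls against HBL1 were fixed by the filter. In all, 7 genes differed between HBL1 and Karpas422, 6 between HBL1 and OCI-LY1 and 6 between Karpas422 and OCI-LY1. The shares of all genes were 54.6%, 54.6% and 50.8%. ALDH1L2 is among the genes called in both HBL1 comparisons and adds nothing to those counts. Without OCI-LY1 shCtr replicate 2 the counts were 8, 6 and 8.

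Of 38 further genes of serine, glycine, folate and methionine metabolism, 30 passed the level filter. The test called 6 lower with the first hairpin (median of the list -0.22, log2) and 5 lower with the second (median -0.13), where 9.09% and 10.2% of all genes were called lower. They came chiefly from serine and glycine uptake and use, where 4 of 7 genes tested were called lower with each hairpin. SLC6A9, a glycine transporter, fell by 3.59 ± 0.42 and 3.95 ± 0.42 (log2, SE; limma adjusted p = 5.61e-07 and 2.44e-07). CTH, the last enzyme from serine to cysteine, fell by 2.95 ± 0.33 and 3.11 ± 0.33 (adjusted p = 3.48e-07 and 2.73e-07). SLC1A5, a neutral amino acid transporter, fell by 1.43 ± 0.25 and 1.11 ± 0.25 (adjusted p = 8.57e-05 and 0.00124). AMT, the folate-binding part of mitochondrial glycine cleavage, fell by 1.22 ± 0.17 and 1.23 ± 0.17 (adjusted p = 6.68e-06 and 7.05e-06). Of the 4 genes tested in the methionine cycle list, AHCYL1 alone was called lower with shSIRT3-1 (-0.79 ± 0.08), and none was called with shSIRT3-2. AHCYL1 is named here after its values were seen.

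ATF4 RNA fell by 0.91 ± 0.15 (log2, SE; limma adjusted p = 5.34e-05) and by 1.03 ± 0.15 (adjusted p = 1.42e-05) over the 3 lines. It held 329, 372 and 278 CPM in Karpas422 controls and 185, 165 and 134, then 122, 119.7 and 105 with the hairpins. In HBL1 it held 279.6, 289 and 342, then 117, 116 and 138, then 139.6, 127 and 158. In OCI-LY1 groups overlapped and it was not called (-0.42, adjusted p = 0.366, and -0.50, adjusted p = 0.272). The part of ATF4 in the change of the enzymes was not tested.

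The genes whose pattern over the 27 libraries lay closest to PSAT1 were found by the root mean square difference in log2(CPM + 0.1), each library taken relative to its line's control mean. Of 13075 genes, SESN2 (0.33), ASNS (0.42), CEBPB (0.44), ULBP1 (0.45) and WARS (0.49) were nearest. ASNS makes asparagine, WARS charges tryptophan to its tRNA and SESN2 is a stress-inducible regulator of growth signalling. Among the enzymes PHGDH ranked 16, PSPH 26, MTHFD2 34, SHMT2 44, ALDH1L2 287 and MTHFD1L 290, while SHMT1 ranked 4712, MTHFD1 7318 and MTHFD2L 10040.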

How the data were processed

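The 27 libraries were RNA-seq of 9 groups of 3. Per the labels and the study's methods, the authors aligned paired reads to hg19 with STAR and counted reads on RefSeq genes with Rsubread. The deposited values are named FPKM, but in every library they were whole multiples of the value of 1 read for genes of any length, so the authors deposited CPM in effect, scaled to a total of which genes held 40.3% to 45.6%. By that step 100.0% of values were within 0.02 of whole reads. The 10 genes and all lists were chosen with earlier results of these data known. Named genes were the 10, SIRT3, ATF4, those of 4 pathway lists called with both hairpins in 1 direction, and the 5 nearest PSAT1. Genes at 1 CPM or more in 3 libraries were tested on log2(CPM + 0.1) with limma 3.58.1 (R 4.3.3), with a variance trend and, over 3 lines, an additive line term. Fold changes on that scale understate low genes. Calls needed a fold over 1.5 and a Benjamini-Hochberg adjusted p under 0.05. Alternatives were other pseudocounts, filters, scalings, a replicate block, edgeR 4.0.16 on recovered reads, and leaving out libraries or lines. Fits were tested on simulated data. Replicate numbers come from the labels. Same-numbered libraries of different groups deviated together in OCI-LY1 (r from 0.137 to 0.622) and HBL1 (r from 0.233 to 0.518), which could be taken as paired. They did so less evenly in Karpas422 (r from 0.004 to 0.534), which could not. The main fits used no replicate block in any line, so their p-values treat the libraries as unpaired. A block was run only as an alternative. Libraries of depth 28694398 to 53405456 reads set the counting precision, and intervals are between libraries. SHMT1, MTHFD1, SHMT2, MTHFD2 and ALDH1L2 overlap a listed gene on the opposite strand, and strand was not stated for counting. PSAT1, PSPH, SHMT1, MTHFD1 and MTHFD2 have named pseudogenes that could share reads. Gene positions come from GENCODE v44 lifted to GRCh37. Some genes of the marker and pathway lists are not reported here.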

Additional observations from a re-analysis of the deposited data

Results flagged for a closer look

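The response to the SIRT3 hairpins differed between the cell lines, by the test of the difference itself, for 6 of the 10 genes (limma, 3 replicates a group): ALDH1L2 (adjusted p = 0.000338), PSPH (0.0012), MTHFD1L (0.00733), SHMT2 (0.0151), MTHFD1 (0.0461) and SHMT1 (0.0484). The same test called 41.8% of all genes, and nothing particular to these enzymes is read from the count. ALDH1L2 fell by 4.53 and 3.27 (log2) in HBL1 and was under 1 CPM elsewhere, where it could not fall, so its difference was fixed by its level. PSPH fell by 2.81 and 2.26 in HBL1 and by 1.65 and 1.75 in Karpas422, and stood at -0.48 and -0.37 in OCI-LY1, without a call. SHMT2 fell by 2.33 and 1.52 in HBL1 and by 1.36 and 1.76 in Karpas422, and stood at -0.83 and -0.64 in OCI-LY1, without a call. MTHFD1L fell by 1.54 with shSIRT3-1 in HBL1 and stood at -0.27 with shSIRT3-2, while in Karpas422 it fell by 0.74 and 1.27. In OCI-LY1 MTHFD1L stood at -0.44 and -0.53, without a call. MTHFD1 and SHMT1 rested on values near the threshold.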

How the results depend on the processing

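Over the 3 lines, the counts of 7 enzymes called with each hairpin and of 4 further pathway genes named stayed within 1.5 times in every alternative run, and leaving out libraries or replicates gave 5 to 7 enzymes with each hairpin. SIRT3 kept its call in all of them. Of 3520 values of single enzymes recomputed, none that was called turned its direction; 128 lost their call and 22 gained one with a library or replicate left out, 33 lost and 22 gained one under other settings, and 53 changed sign without a call on either side. Enzymes differing between hairpins over 3 lines (1) numbered 2 without Karpas422, 0 without HBL1, and 0 to 1 with libraries left out. Enzymes differing in response between lines (6) numbered 3 without OCI-LY1, 0 without HBL1, and 1 to 8 with libraries left out. In OCI-LY1 the counts of 0 became 1 (median-ratio scaling), 2 (edgeR quasi-likelihood), 4 (edgeR likelihood ratio) and 1 (9-group model over 27 libraries) with shSIRT3-1, and 2, 3 and 2 (quasi-likelihood, likelihood ratio and 9-group model) with shSIRT3-2; with libraries left out they ran 0 to 2 and 0 to 1. In HBL1 the counts of 8 and 7 ran 5 to 8 and 3 to 8 with libraries left out, the lowest without every replicate 1. Control differences ran 3 to 8 (HBL1 and Karpas422, with 3 or 4 without any 1 HBL1 control or without Karpas422 control replicate 1) and 2 to 6 (HBL1 and OCI-LY1). No share of all genes is given for counts under altered fits, here or above, and nothing particular to the enzymes is read from them. Fits with libraries left out also hold fewer libraries, and the causes of the shifts were not tested.

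Over the 3 lines Karpas422 did not meet the pairing criterion. Across lines 25 of 27 same-numbered pairs had r above 0.1 (7 of 9 in Karpas422), against 11 of 54 other-numbered pairs, whose highest r was 0.502. In 46 of 54 cases the closest of the 3 libraries in another group of a library's line bore its own number. With a replicate block 7 enzymes were called with each hairpin, 6 differed between lines (PHGDH at adjusted p = 0.00808 in place of SHMT1 at 0.0542), and 8 were called in HBL1 with shSIRT3-2; no other call of the enzymes changed. The quantile scaling moved the split of all calls with shSIRT3-1 from 1189 lower and 512 higher to 945 and 782, and with shSIRT3-2 from 1330 and 430 to 963 and 657. On the recovered reads edgeR's quasi-likelihood test called 1880 genes with shSIRT3-1 and 1998 with shSIRT3-2, where limma called 1701 and 1760, with the same 7 enzymes among them.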
